A study of Mus musculus with 23 samples.

Results

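Ionotropic glutamate receptors of the AMPA and NMDA type were followed in 3 brain regions of mice from a group labelled obese, which had access to a chocolate mixture, and a group labelled lean. The subunits were taken by gene symbol from the annotation of the array, namely Gria1, Gria2, Gria3, Gria4, Grin1, Grin2a, Grin2b, Grin2c, Grin2d and Grin3a. These 10 genes (4 AMPA, 6 NMDA) were measured by 13 transcript identifiers on 16 spots, of 31395 identifiers tested in all. RNA from frontal cortex (FC), striatum (ST) and a region named HT came from female C57BL/6 mice, which were 5 weeks old at the start of the experiments, were kept on their diet for 8 weeks and were killed after a further 11-day battery of behavioral tests. SC mice received standard chow, and CM mice had free access to a chocolate mixture beside the chow. Each group held 4 arrays, 1 per mouse, except FC of CM mice with 3, so that the 23 arrays were 7 from FC, 8 from ST and 8 from HT, and the same mouse gave up to 3 of them. The mice carried no transgene or deletion that the labels name, and body weight and diet cannot be told apart in this design.

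AMPA receptors carry most of the fast excitatory current between neurons and are assembled as tetramers from GluA1 to GluA4, the products of Gria1 to Gria4. The GluA2 subunit, whose messenger RNA is edited by the enzyme encoded by Adarb1, makes the channel nearly impermeable to calcium. NMDA receptors open when glutamate is bound and the membrane is depolarized, they admit calcium, and they need the obligatory GluN1 subunit (Grin1) together with GluN2 subunits (Grin2a to Grin2d) or GluN3 subunits (Grin3a, Grin3b). GluN2A and GluN2B predominate in the adult forebrain, GluN2D is known from diencephalon, brain stem and interneurons, and GluN2C from cerebellum, thalamus and astrocytes.

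Each spot is a 60-base oligonucleotide whose brightness reports 1 stretch of a transcript. For Gria2, Gria4 and Grin1 the array held a pair of identifiers that read different stretches of the same gene, and since these pairs did not always move together, the first 30 bases of their probes are shown 5′ to 3′, with that of Grin2d, the subunit that stood highest in HT relative to the other regions. No part of these sequences is capitalized.
Gria2 NM_001039195, mm9 chr3:80495725-80495784, minus strand: tttaatttgggggatattccttggggaaaa
Gria2 NM_001083806, mm9 chr3:80488858-80488917, minus strand: tttcatactttacctaatggcaatctggag
Gria4 NM_001113180, mm9 chr9:4417896-4417955, minus strand: cagcacccagcacagtgcctggcatattgt
Gria4 NM_019691, mm9 chr9:4502385-4502444, minus strand: ttgaccactatggacgtagagttaattaca
Grin1 NM_001177656, mm9 chr2:25146927-25146986, minus strand: aagagggctgagccttctcttctgtctgca
Grin1 NM_008169, mm9 chr2:25147922-25147981, minus strand: tttgcaaaaccaaaaagacacagtgctgcc
Grin2d NM_008172, mm9 chr7:53087859-53087918, minus strand: tcttggagcccaccgactcttttttaaacc
The positions span the whole probe and are those of the array annotation. Exon and UTR annotation of that build was not used here. All 16 spots were well above background on 23 of 23 arrays and none was saturated, so no subunit had only a bound. The dimmest spot was Grin2d (median intensity 75.5 to 358, against a 95th percentile of the negative controls between 37.0 and 46.5). Because probes differ in how strongly they bind, the level of a subunit was compared between samples and never with the level of another subunit.

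The dissections were checked with marker genes. All 7 identifiers of 6 cortical projection neuron genes were lower in ST and in HT than in FC at an adjusted p under 0.05, and all 8 of 7 striatal genes were higher in ST than in FC. By mean log2 level per array, the ST arrays were uneven. Cortical markers reached 9.63 in ST of SC mice, against 9.82 upward in FC of SC mice. Hypothalamic markers ran from 6.90 to 11.24 in ST of SC mice, against 9.55 upward in HT of SC mice. Choroid plexus markers ran from 8.93 to 13.77 in ST of CM mice. The part of this in differences with ST was not tested. HT is labelled as a thalamic region and was called hypothalamus in the study. Hypothalamic markers (6 of 8 identifiers at least 2-fold higher than in FC with an adjusted p below 0.01, Pmch by 7.13 and Hcrt by 6.72 on the log2 scale) and thalamic markers (9 of 10 identifiers by the same thresholds, Gbx2 by 5.30) were both high there, so the name HT is kept here. The arrays lay on 3 slides, and the slide is partly tied to the groups: all FC arrays of CM mice were on slide 3, where no FC array of SC mice lay. All ST arrays of CM mice were on slide 1 and all HT arrays of CM mice on slide 2. Values with the slide as a term or within slides are therefore given beside some of the results. Within slide 3, HT-FC set 3 HT arrays of SC mice against 3 FC arrays of CM mice, so diet and region were not separated. Within slide 2 it set 4 HT arrays of CM mice and 1 of SC mice against 1 FC array, from the SC mouse L52. On 1 of the 23 arrays, ST of the SC mouse L58, both Grin1 identifiers stood apart, and that array had the lowest weight in the fit (0.222, against up to 2.74).

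The clearest differences lay between the regions. In HT, the AMPA subunits Gria2 and Gria3 and the NMDA subunits Grin1, Grin2a and Grin2b were lower than in FC, whereas Grin2d and Grin3a were higher. At the threshold of at least 2-fold and an adjusted p under 0.01, 4 identifiers were lower (Gria2 NM_001083806, Gria3, Grin2a and Grin2b) and 1 was higher (Grin2d), that is 5 of 13, where 3.91% of all identifiers were lower and 3.76% higher. At an adjusted p under 0.05 alone the count was 8 lower and 2 higher, where 52.8% of all identifiers passed. Between HT and ST, 1 identifier was lower (Grin1 NM_008169, where 3.54% of all were lower) and 2 were higher (Grin2d and Grin3a, where 2.84% were higher), and 12 of 13 passed an adjusted p under 0.05, where 51.4% of all did. The HT-ST count of 3 was 5 when any of 6 single arrays was left out (ST of L52 and L56, HT of L54, L56, O52 and O58). The values of HT and FC did not overlap for 9 of 13 identifiers, where this held for 20.9% of all, and those of HT and ST did not overlap for 9 of 13, where this held for 15.9%. Over the 13 identifiers the median absolute log2 difference was 0.91 for HT against FC and 0.79 for HT against ST, beside 0.23 and 0.24 over all identifiers.

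**Figure D1:**
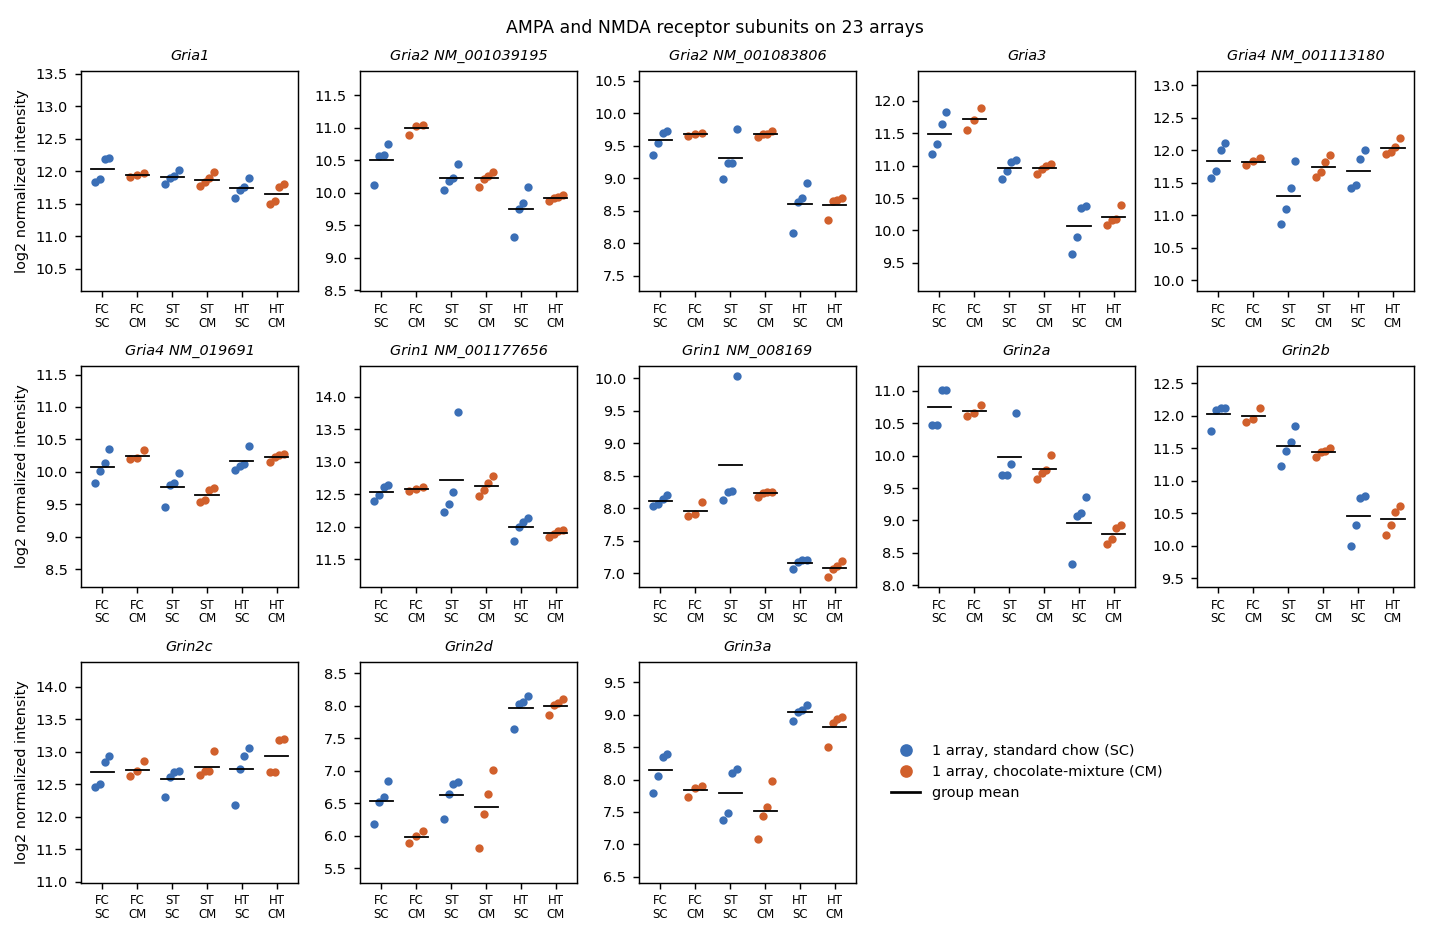
Log2 normalized intensity (vertical axis) of the 13 identifiers on each of 23 arrays, by region and diet (horizontal axis); points are arrays, colours diets and lines group means. Grin2a and Grin2b step down from FC through ST to HT, Grin2d sits between 7.64 and 8.15 in HT against 5.81 to 7.01 in ST, and 1 ST array stands far above the others for both Grin1 identifiers.

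Among the AMPA subunits, Gria3 had the widest regional range. Its log2 intensity was 11.17 to 11.89 in FC (median 11.63, n = 7), 10.80 to 11.08 in ST (median 10.97, n = 8) and 9.63 to 10.39 in HT (median 10.17, n = 8). The 3 regions did not overlap, with FC above ST and ST above HT. Gria3 was 2.66-fold lower in HT than in FC (log2 -1.41 ± 0.10 SE, adjusted p = 2.51e-10), and lower in 7 of 7 mice. The HT-ST difference of Gria3 was -0.79 ± 0.10 (adjusted p = 2.79e-06), lower in 8 of 8 mice. A fixed slide term gave -1.47 for HT-FC, and within slides 2 and 3 it was -1.73 and -1.503. The 2 spots behind this identifier gave -1.46 and -1.45.

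Gria2, the subunit that limits calcium entry, was lower in HT by both identifiers. NM_001083806 was at 9.36 to 9.73 in FC (median 9.68), 8.98 to 9.76 in ST (median 9.66) and 8.15 to 8.93 in HT (median 8.65), so every HT array was below every other array. The HT-FC difference was -1.005 ± 0.08 (2.01-fold, adjusted p = 3.58e-09) and lay at the fold threshold, which it missed in SC mice alone (1.93-fold) and passed in CM mice alone (2.09-fold), and the HT-ST difference was -0.87 ± 0.09 (adjusted p = 9.35e-08). NM_001039195 was at 10.13 to 11.05 in FC (median 10.75), 10.04 to 10.45 in ST (median 10.23) and 9.31 to 10.09 in HT (median 9.90). Here HT was again below FC without overlap (-0.89 ± 0.08, adjusted p = 1.96e-08), but HT and ST overlapped, with a difference of -0.39 ± 0.09 (adjusted p = 0.00104). Both identifiers were lower in HT than in FC in 7 of 7 mice. A fixed slide term gave -0.96 and -1.03.

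Gria1, which with GluA2 forms the most common AMPA receptor of forebrain principal neurons, was nearly level. Its intensity was 11.83 to 12.21 in FC (median 11.95), 11.77 to 12.02 in ST (median 11.89) and 11.49 to 11.90 in HT (median 11.73), and the regions overlapped. The HT-FC difference of Gria1 was -0.27 ± 0.07 (1.203-fold, adjusted p = 0.00213) and the HT-ST difference was -0.22 ± 0.07 (adjusted p = 0.0133). The latter had an adjusted p of 0.0996 once a fixed slide term was added.

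Gria4, the fast-gating subunit of many interneurons, was the AMPA subunit that was not lower in HT than in FC. NM_019691 was at 9.83 to 10.36 in FC (median 10.20), 9.46 to 9.98 in ST (median 9.74) and 10.03 to 10.39 in HT (median 10.19). It was higher in HT than in ST in 8 of 8 mice without overlap (0.50 ± 0.07, adjusted p = 9.28e-06), while HT and FC differed by 0.06 with a 95% interval from -0.09 to 0.20. NM_001113180 was at 11.57 to 12.12 in FC (median 11.83), 10.86 to 11.93 in ST (median 11.62) and 11.42 to 12.20 in HT (median 11.95), with overlap between all regions and 0.36 ± 0.10 for HT-ST (adjusted p = 0.00602) and 0.05 for HT-FC (interval -0.15 to 0.26).

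Among the NMDA identifiers, each averaged over its spots, that of Grin2a, encoding GluN2A, fell furthest from cortex to HT. It was at 10.47 to 11.02 in FC (median 10.66), 9.64 to 10.66 in ST (median 9.76) and 8.34 to 9.35 in HT (median 8.91). HT lay below both other regions without overlap, while ST overlapped FC through 1 array, that of the SC mouse L54 at 10.66. The HT-FC difference of Grin2a was -1.82 ± 0.12 (3.52-fold, adjusted p = 1.91e-10), the 687th largest of 31395 in size, and the HT-ST difference was -0.98 ± 0.13 (1.97-fold, adjusted p = 3.16e-06). The 2 spots of Grin2a gave -1.68 and -1.99 for HT-FC, and within slides 2 and 3 the difference was -2.31 and -1.503.

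Grin2b, encoding GluN2B, followed the same order. Its intensity was 11.76 to 12.13 in FC (median 12.08), 11.23 to 11.84 in ST (median 11.46) and 9.999 to 10.77 in HT (median 10.42). Grin2b was 2.97-fold lower in HT than in FC (-1.57 ± 0.10, adjusted p = 7.16e-11) and 1.96-fold lower than in ST (-0.97 ± 0.11, adjusted p = 2.01e-07), in 7 of 7 and 8 of 8 mice. Its 2 spots differed in size, with -1.21 and -1.95 for HT-FC.

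Grin1, the obligatory GluN1 subunit, was lower in HT than in the other regions by both identifiers. NM_001177656 was at 12.40 to 12.64 in FC (median 12.58), 12.22 to 13.77 in ST (median 12.55) and 11.78 to 12.14 in HT (median 11.94). NM_008169 was at 7.89 to 8.21 in FC (median 8.06), 8.12 to 10.03 in ST (median 8.24) and 6.94 to 7.21 in HT (median 7.14). Every HT array was below every FC and ST array for both. The highest ST values, 13.77 and 10.03, came from the same array of mouse L58, and the next highest ST values were 12.78 and 8.26. The HT-ST difference of Grin1 was -0.60 ± 0.09 (adjusted p = 2.56e-05) for the former and -1.201 ± 0.11 (2.2997-fold, adjusted p = 1.54e-08) for the latter, and without that array it was -0.52 and -1.10. The HT-FC differences were -0.61 ± 0.09 (adjusted p = 7.38e-06) and -0.91 ± 0.10 (adjusted p = 2.36e-07), in 7 of 7 mice.

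Grin2d, encoding GluN2D, ran the opposite way. It was at 5.89 to 6.85 in FC (median 6.18), 5.81 to 7.01 in ST (median 6.65) and 7.64 to 8.15 in HT (median 8.03). FC and ST overlapped, and every HT array was above both. Grin2d was 3.30-fold higher in HT than in FC (1.72 ± 0.14, adjusted p = 2.23e-09) in 7 of 7 mice, and 2.79-fold higher than in ST (1.48 ± 0.15, adjusted p = 6.35e-08) in 8 of 8. Within slides 2 and 3 the HT-FC difference was 1.84 and 1.95, and a fixed slide term gave 1.89. An added offset of 50 intensity units, which compresses dim spots, lowered the HT-FC difference of Grin2d to 1.26.

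Grin3a, encoding the GluN3A subunit that lowers calcium flow through the receptor, was also highest in HT. It was at 7.73 to 8.39 in FC (median 7.90), 7.08 to 8.16 in ST (median 7.53) and 8.49 to 9.15 in HT (median 8.94). HT was above FC by 0.96 ± 0.13 (1.95-fold, adjusted p = 1.66e-06) and above ST by 1.18 ± 0.13 (2.26-fold, adjusted p = 3.42e-07), with no overlap and in every mouse with both regions. The HT-FC difference of Grin3a was 0.49 within slide 2 and 1.17 within slide 3, and 0.90 with a fixed slide term. Grin2c, encoding GluN2C, did not pass in any region. Its intensity was 12.45 to 12.94 in FC (median 12.70), 12.29 to 13.003 in ST (median 12.69) and 12.17 to 13.19 in HT (median 12.84), and the HT-FC difference of Grin2c was 0.12 with a 95% interval from -0.12 to 0.37 (adjusted p = 0.406).

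**Figure D2:**
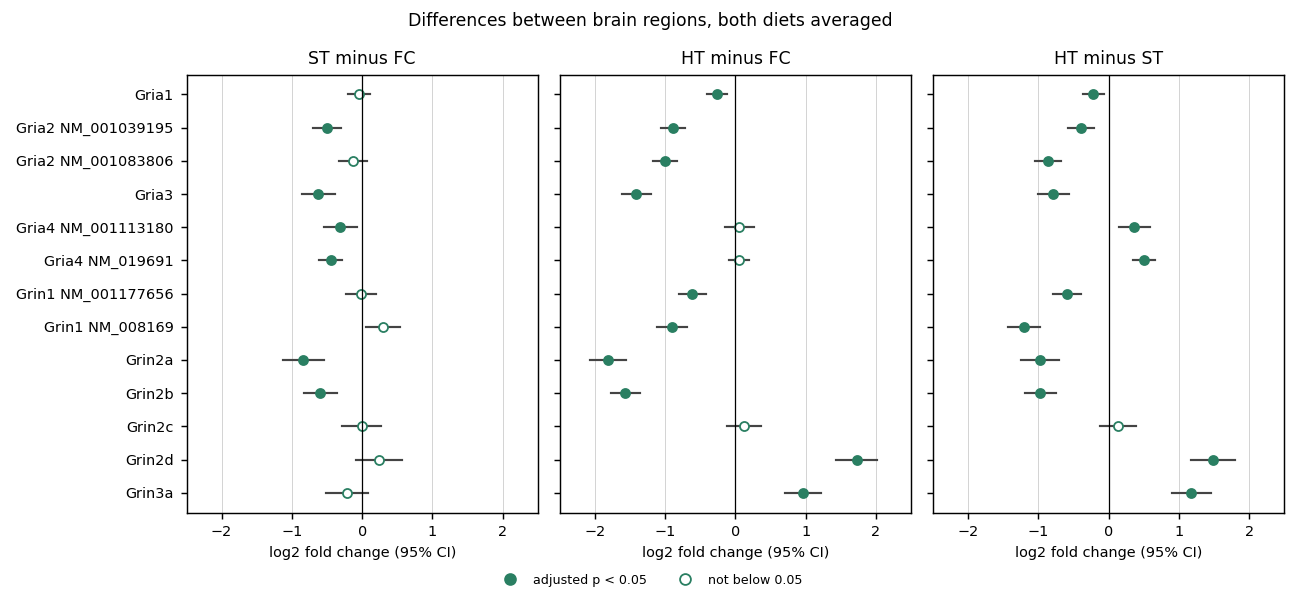
Log2 fold change between regions with its 95% confidence interval (horizontal axis) for each identifier (vertical axis), both diets averaged; filled points had an adjusted p under 0.05. The HT columns place Grin2d at 1.72 and 1.48 and Grin3a at 0.96 and 1.18 to the right of 0, and Gria2, Gria3, Grin1, Grin2a and Grin2b to the left.

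Levels in tissue RNA do not tell fewer cells of a type from less RNA per cell. Of the 6 identifiers of 5 general neuron genes, 4 were lower and 1 higher in HT than in FC at an adjusted p under 0.05, with a median of -0.57 on the log2 scale, and their mean log2 intensity per array was 14.73 to 14.90 in FC, 14.19 to 14.70 in ST and 14.14 to 14.37 in HT. Of 7 oligodendrocyte identifiers, 5 were higher and 1 lower in HT than in FC, with means per array of 12.03 to 13.07 in FC and 13.11 to 13.32 in HT. The part of cell makeup in the subunit differences was not tested.

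ST and FC were closer to each other. No identifier reached 2-fold (1.60% of all identifiers were called lower and 2.23% higher), while 6 of 13 were lower in ST at an adjusted p under 0.05 and none higher, where 33.9% of all passed. The 6 were Grin2a, Gria3, Grin2b, both Gria4 identifiers and Gria2 NM_001039195. The largest was Grin2a at -0.84 ± 0.14 (1.78-fold, adjusted p = 0.000105), lower in 6 of 7 mice. Gria3 was lower by -0.63 ± 0.11 (adjusted p = 0.000195), and was the 1 identifier whose ST and FC values did not overlap, where 6.72% of all did not. Grin2b was lower by -0.60 ± 0.11 (adjusted p = 0.000368) in 7 of 7 mice, and Gria4 NM_019691 by -0.44 ± 0.08 (adjusted p = 0.000166) in 7 of 7. Gria4 NM_001113180 (-0.31 ± 0.11, adjusted p = 0.0367) rested on single arrays: leaving out any of 7 of the 15 FC and ST arrays raised its adjusted p to between 0.0579 and 0.134 (FC of L54, L56, O54 and O56, ST of L58, O54 and O56). Under a fixed slide term these 6 kept an adjusted p between 0.000908 and 0.0378. In SC mice alone 2 of the 6 passed, Grin2a and Grin2b, and in CM mice alone 5 did, all but Gria4 NM_001113180 (-0.09, adjusted p = 0.505). Gria2 NM_001039195 was at -0.21 in SC mice (adjusted p = 0.414) and -0.78 in CM mice (adjusted p = 1.76e-06).

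For Grin1 the ST-FC comparison differed with and without a slide term. The differences were -0.01 ± 0.10 (adjusted p = 0.937) for NM_001177656 and 0.29 ± 0.12 (adjusted p = 0.0594) for NM_008169. Under a fixed slide term they were 0.39 (adjusted p = 0.0141) and 0.73 (adjusted p = 0.00114). The far array of mouse L58 was the 1 ST array on slide 3, where the ST-FC difference was 1.19 and 2.07, against 0.02 and 0.08 on slide 1. Without it, Grin1 NM_008169 was higher in ST by 0.20 (adjusted p = 0.0170). The FC arrays on slide 3 were all from CM mice, so slide, diet and that single array cannot be told apart there.

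Ratios of subunits were compared between regions of the same mouse, since a change in the ratio of a pair of probes can be read although their levels cannot. The log2 ratio of Gria1 to Gria2, each by its brighter identifier, was 1.28 ± 0.35 in FC (SD, n = 7), 1.67 ± 0.10 in ST (n = 8) and 1.85 ± 0.28 in HT (n = 8). Within mice it was higher in HT than in FC by 0.61 ± 0.38 (SD, 6 of 7 mice, exact sign-flip permutation test, two-sided p = 0.0312, adjusted over 6 ratio comparisons p = 0.0938). It was higher in ST than in FC by 0.38 ± 0.36 in 5 of 7 mice (exact permutation p = 0.0625, adjusted p = 0.0938), and higher in HT than in ST by 0.19 ± 0.22 in 7 of 8 mice (exact permutation p = 0.0312, adjusted p = 0.0938). These tests pooled the diets, and the change from FC was unlike between them. The mean ratio in FC, ST and HT was 1.52, 1.69 and 1.99 in SC mice, and 0.95, 1.65 and 1.72 in CM mice. In FC the ratio did not overlap between diets, at 1.25 to 1.75 in SC mice and 0.86 to 1.08 in CM mice, which is not independent of the Gria2 difference described below. This ratio used Gria2 NM_001039195. The other identifier, NM_001083806, overlapped between diets in FC, at 9.36 to 9.73 in SC mice and 9.64 to 9.70 in CM mice. Diet and slide cannot be told apart in FC.

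The log2 ratio of Grin2a to Grin2b averaged -1.29 ± 0.32 (SD, n = 7) in FC, -1.60 ± 0.35 (n = 8) in ST and -1.55 ± 0.17 (n = 8) in HT. Within mice it was lower in HT than in FC in 6 of 7 mice (-0.25 ± 0.28, exact permutation p = 0.0625, adjusted p = 0.0938). The ST-FC change was -0.29 ± 0.51 in 5 of 7 mice (exact permutation p = 0.188, adjusted p = 0.225), and the HT-ST change was 0.05 ± 0.32 (exact permutation p = 0.617, adjusted p = 0.617). None of the 6 comparisons passed after adjustment. With slide effects subtracted, the mean difference of the Gria1 to Gria2 ratio was 0.34 (ST-FC), 0.65 (HT-FC) and 0.27 (HT-ST). That of Grin2a to Grin2b was -0.42 for HT-FC. These slide effects were estimated from the same arrays and shift all CM mice alike. The sign-flip test takes no account of their error, so no p-value is given for them. By this test 7 mice cannot give a p below 0.0156, nor 8 mice one below 0.00781.

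**Figure D3:**
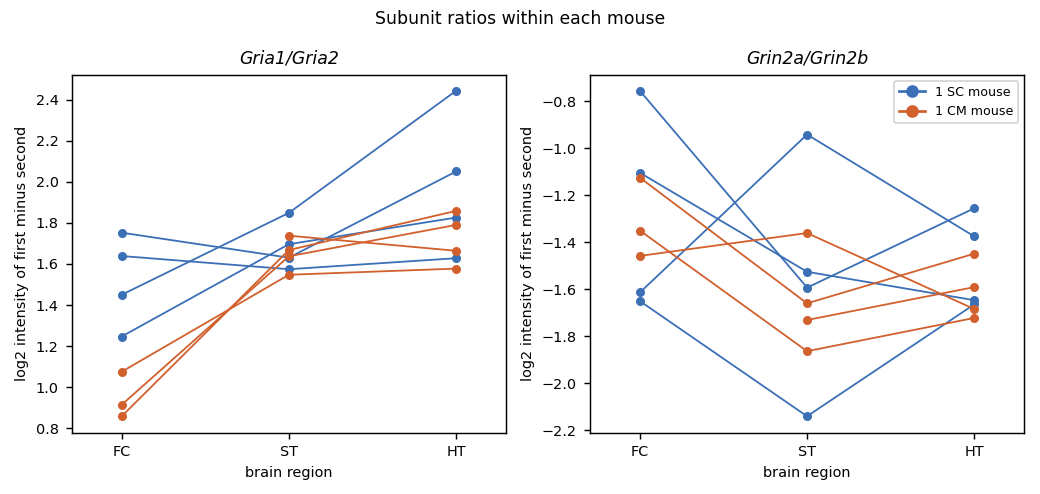
Log2 intensity of the first subunit minus that of the second (vertical axis) by brain region (horizontal axis); each line is 1 mouse and colours are diets. The Gria1 to Gria2 ratio rises from FC to HT in 6 of 7 mice, and the 3 CM mice with an FC array start lowest, between 0.86 and 1.08. Gria2 is read by NM_001039195.

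The proteins that the receptors work with were read from 5 lists, with calls between regions made as for the subunits. Over all identifiers, 3.91% were called lower and 3.76% higher in HT than in FC. These shares were 3.54% and 2.84% for HT against ST, and 1.60% and 2.23% for ST against FC. Among 22 identifiers of AMPA receptor auxiliary and assembly proteins, 6 were called lower and 2 higher in HT than in FC, with a median of -0.47, beside 0.03 over all identifiers. The largest falls were in Cacng3 (-2.32 ± 0.09), a transmembrane AMPA receptor regulatory protein, in Nptx1 (-2.16 ± 0.24), a pentraxin that clusters AMPA receptors, and in Gsg1l (-2.04 ± 0.08), an auxiliary subunit. Cacng5 (2.07 ± 0.27) and Shisa6 (1.69 ± 0.17) were higher in HT, and both encode proteins that bind AMPA receptors. Between HT and ST, 4 were lower, led by Gsg1l (-2.35 ± 0.08), Cacng3 (-2.11 ± 0.10) and Shisa7 (-1.65 ± 0.09), and Shisa6 (1.73 ± 0.18) and Cacng5 (1.66 ± 0.29) were higher. Between ST and FC, Cnih3 (-1.43 ± 0.19) and Nptx1 (-1.34 ± 0.28) were lower in ST and Cacng4 (1.81 ± 0.16) was higher.

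Of 26 identifiers of postsynaptic scaffold, kinase and trafficking proteins, 12 were called lower and 0 higher in HT than in FC, with a median of -0.80. At an adjusted p under 0.05 alone, 19 were lower and 2 higher, where 52.8% of all identifiers passed in either direction. The largest falls were in Homer1 NM_011982 (-2.89 ± 0.12), which tethers metabotropic receptors, Dlgap2 (-2.73 ± 0.08), which binds PSD-95, and Camk2a (-2.57 ± 0.15), a kinase of synaptic plasticity. Dlg4, encoding PSD-95 itself, was lower by -1.01 ± 0.07. Between HT and ST, 7 were lower and 0 higher, led by Homer1 (-2.72 ± 0.13), Dlgap2 (-2.54 ± 0.08) and Homer1 NM_147176 (-2.35 ± 0.10). Between ST and FC, 4 were lower, led by Dlgap1 NM_177639 (-1.47 ± 0.14), Homer2 (-1.18 ± 0.11) and Dlgap1 NM_027712 (-1.11 ± 0.11).

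Of 12 identifiers of kainate, delta and remaining NMDA subunits, 2 were called lower in HT than in FC, both of Neto1 (-2.01 ± 0.10 and -1.57 ± 0.10), a kainate receptor auxiliary protein. The 2 called higher were Grin3b (1.68 ± 0.13), encoding GluN3B, and Grik1 (1.07 ± 0.11), a kainate receptor subunit. Grin3b was also higher in ST than in FC (1.39 ± 0.15), as was Neto2 (1.01 ± 0.10). Between HT and ST, both Neto1 identifiers (-2.14 ± 0.11 and -2.03 ± 0.11) and Neto2 (-1.61 ± 0.09) were lower in HT, and Grik1 (1.53 ± 0.12) was higher. Of 8 identifiers of metabotropic receptors, 3 were called lower in HT than in ST, 2 of Grm5 and 1 of Grm4, by -1.46 ± 0.11, -1.31 ± 0.08 and -1.43 ± 0.12. Between ST and FC, Grm5 (1.30 ± 0.12) and Grm4 (1.001 ± 0.13) were higher in ST and Grm2 (-1.05 ± 0.11) was lower. Among 3 RNA editing enzymes, Adarb1, which edits the Gria2 transcript, was higher in HT than in FC (1.43 ± 0.14) and ST (1.53 ± 0.15), and all 3 passed an adjusted p under 0.05 in both comparisons, where 52.8% and 51.4% of all identifiers did. Under a fixed slide term the HT-FC medians of the 5 lists were -0.52, -0.85, -0.11, -0.35 and 0.997 in the order given here, and within slides 2 and 3 they kept their signs. In that order, the ST-FC calls (lower and higher) then were 1 and 2, 3 and 0, 0 and 1, 1 and 2, and 0 and 0. Not every ST-FC call named above was thus kept. The HT-ST calls were 3 and 2, 8 and 0, 4 and 1, 4 and 1, and 0 and 2.

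**Figure D4:**
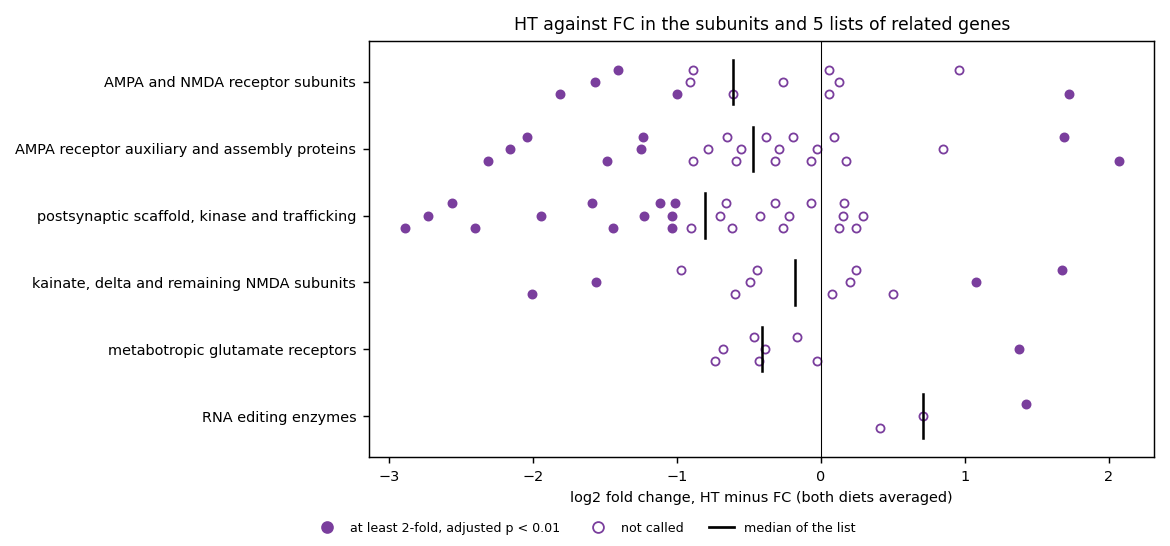
Log2 fold change of HT against FC (horizontal axis) for the receptor subunits and 5 lists of related genes (vertical axis); each point is an identifier, filled where it met both the 2-fold and the adjusted p threshold of 0.01, and bars are medians. The scaffold list has 12 called identifiers on the left and none on the right, and Grin2d is the 1 called subunit on the right.

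The subunits were also compared in their pattern over the 23 arrays, as a description in which the regions set most of the correlation. Gria3, Grin2a and Grin2b were the most alike (Pearson r of 0.93 to 0.95 for the 3 pairs), and Grin2d ran opposite to Gria3 (r = -0.89). After each group mean was removed, r was 0.71 for Gria3 with Grin2a, 0.39 for Gria3 with Grin2b and 0.36 for Grin2a with Grin2b. Among 17463 other identifiers with a gene name, the nearest to Grin2a were Zdhhc8 (r = 0.98) and Lhx2 (r = 0.98), to Grin2b Mei1 (0.97) and Ube3b (0.97), and to Grin2d Ciapin1 (0.97) and Nrip2 (0.97). The nearest to Gria3 were Cadm2 (0.98) and R3hdm1 (0.97), to Gria2 Stxbp5 (0.94) and R3hdm1 (0.93), and to Gria1 Cpne8 (0.84) and Hspa2 (0.82). Those of Gria4 were Hsp90aa1 (0.91) and Zfp322a (0.89), of Grin1 Mark2 (0.97) and Thop1 (0.95), of Grin2c Raver2 (0.86) and Fam163a (0.85), and of Grin3a Cdk18 (0.95) and Spag4 (0.94).

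For 2 subunits that ran in opposite directions, Gria2 and Grin2d, the 250 bases before the annotated start are shown from RefSeq (build GRCm38.p6, minus strand), 5′ to 3′, with each CpG dinucleotide in capitals.
Gria2, chr3:80802836-80803085: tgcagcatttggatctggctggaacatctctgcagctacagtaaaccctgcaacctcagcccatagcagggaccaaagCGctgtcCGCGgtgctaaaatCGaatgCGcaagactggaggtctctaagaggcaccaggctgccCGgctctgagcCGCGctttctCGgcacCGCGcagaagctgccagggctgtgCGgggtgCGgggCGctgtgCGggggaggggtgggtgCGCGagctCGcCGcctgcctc
Grin2d, chr7:45866682-45866931: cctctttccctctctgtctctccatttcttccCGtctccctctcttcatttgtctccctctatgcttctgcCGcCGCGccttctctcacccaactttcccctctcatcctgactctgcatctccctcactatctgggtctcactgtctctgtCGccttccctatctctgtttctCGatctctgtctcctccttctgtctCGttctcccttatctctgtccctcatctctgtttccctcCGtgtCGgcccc
The Gria2 window held 19 CpG and the Grin2d window 9, and 19.7% and 40.3% of the 32851 promoters in the table held at least as many. RefSeq windows were matched for 5 of the 10 genes, and the other 3 held 16 (Gria4), 27 (Grin1) and 15 (Grin2c) CpG. The GC box GGGCGG, searched on both strands, was found in the Grin2c window alone, where 32.7% of all promoters held it, and TATAAA, searched the same way, in none of the 5, where 12.4% did. These are descriptions of the letters in the window.

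The diet changed no subunit by the thresholds of the study. For FC and ST these asked for a 2-fold change and an adjusted p under 0.01, which 2.94% and 0.602% of all identifiers met, and for HT a 1.5-fold change and an adjusted p under 0.05, which 0.178% met. At an unadjusted p under 0.05, FC and ST each had 2 of 13 identifiers and HT had 0, beside 12544, 8006 and 4154 of all 31395 identifiers. At an adjusted p under 0.05 with no fold threshold, 2 passed in FC, where 28.6% of all did, 0 in ST, where 9.82% did, and 0 in HT, where 0.430% did. The 13 identifiers had a median absolute log2 difference of 0.10 (FC), 0.15 (ST) and 0.11 (HT), beside 0.23, 0.18 and 0.10 over all.

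In FC the first of these was Gria2 NM_001039195. Its values were 10.75, 10.57, 10.58 and 10.13 in SC mice and 11.03, 11.05 and 10.89 in CM mice. All CM values were above all SC values, as was so in 1 direction or the other for 2 of the 13 identifiers and for 25.3% of all. The difference was 0.53 ± 0.13 (1.45-fold, 95% interval 0.27 to 0.80, adjusted p = 0.00390). The other Gria2 identifier, NM_001083806, was at 9.73, 9.54, 9.70 and 9.36 in SC mice and 9.70, 9.64 and 9.68 in CM mice, with a difference of 0.10 (interval -0.16 to 0.36, adjusted p = 0.593).

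The second was Grin2d, at 6.18, 6.52, 6.60 and 6.85 in SC mice and 6.005, 5.89 and 6.07 in CM mice. All CM values were below all SC values. The difference of Grin2d was -0.63 ± 0.21 (1.55-fold, interval -1.07 to -0.20, adjusted p = 0.0294). It rested on the settings: leaving out any of 4 of the 7 FC arrays raised its adjusted p to between 0.0596 and 0.0884 (SC mice L54 and L58, CM mice O54 and O56), and without array weights it was 0.0882.

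The diet and the slide cannot be told apart in FC, since no slide held FC arrays of both diets. A fixed slide term can be fitted since the other regions tie the slides together, and the differences then were 0.37 for Gria2 NM_001039195 (adjusted p = 0.855) and -0.38 for Grin2d (adjusted p = 0.943). With the slide as a random block they were 0.51 (adjusted p = 0.0657) and -0.60 (adjusted p = 0.212). The number of spots well above background moved with the same split, at 36432 to 38472 on FC arrays of SC mice and 41481 to 42261 on those of CM mice. Some markers of other cells differed too, at an adjusted p under 0.05 that 28.6% of all identifiers passed. Of 7 oligodendrocyte identifiers, 4 were lower and 1 higher in CM mice, with a mean log2 level per array of 12.03 to 13.07 in SC and 12.04 to 12.35 in CM mice. For astrocytes 3 of 5 were lower (10.88 to 11.72 in SC and 10.84 to 11.01 in CM mice), and for striatum 1 of 8 was (9.31 to 11.66 and 9.32 to 11.58). Of the other lists, 1 of 10 thalamic and 1 of 6 neuron identifiers were lower and 1 of 5 microglial was higher. No cortical, hypothalamic or choroid plexus identifier passed. The part of the spot numbers and marker levels in the Gria2 and Grin2d differences was not tested.

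In ST no subunit passed. The nearest was Gria2 NM_001083806, at 9.76, 9.23, 9.24 and 8.98 in SC mice and 9.73, 9.69, 9.68 and 9.64 in CM mice, with a difference of 0.41 ± 0.14 (adjusted p = 0.0671). The groups overlapped through the SC mouse L52, the 1 SC mouse whose ST array shared slide 1 with the CM arrays, and within that slide the difference was -0.07. Grin1 NM_008169 was at 8.12, 8.24, 8.26 and 10.03 in SC mice and 8.18, 8.24, 8.25 and 8.24 in CM mice, a difference of -0.20 ± 0.17 that was -0.01 without the array of mouse L58. In HT the largest difference was that of Grin2a, at 9.06, 9.35, 9.12 and 8.34 in SC mice and 8.93, 8.64, 8.72 and 8.88 in CM mice (-0.28 ± 0.16, interval -0.61 to 0.04, adjusted p = 0.457). Within slide 2, which held the lowest SC value, that difference was 0.46. The 95% intervals of all 13 identifiers in HT lay between -0.61 and 0.49.

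**Figure D5:**
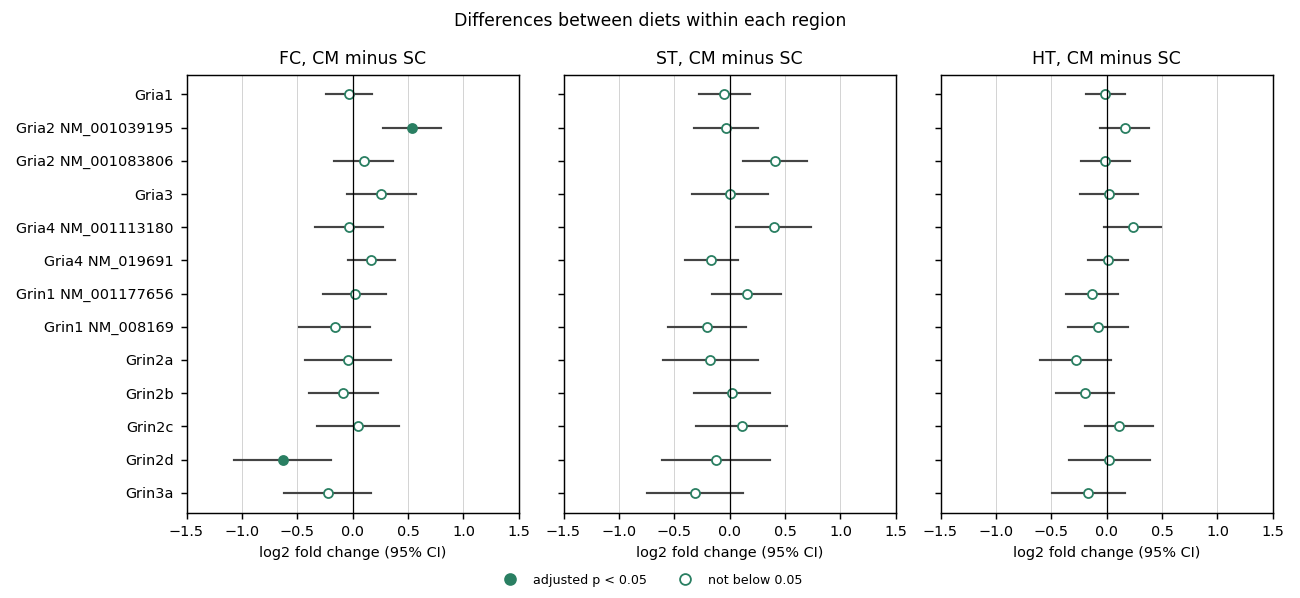
Log2 fold change of CM against SC mice with its 95% confidence interval (horizontal axis) for each identifier (vertical axis) in FC, ST and HT; filled points had an adjusted p under 0.05. Gria2 NM_001039195 at 0.53 and Grin2d at -0.63 in FC are the 2 filled points.

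Whether the diet difference itself depended on the region was tested for each pair of regions. Between ST and FC, 1 of 13 identifiers passed an adjusted p under 0.05, where 30.1% of all did. This was Gria2 NM_001039195, whose difference was 0.53 in FC and -0.03 in ST, that is -0.57 ± 0.19 apart (adjusted p = 0.0301). Under a fixed slide term it was -0.19 (adjusted p = 0.99995). Between HT and FC none of the 13 passed, where 20% of all did, the nearest being Grin2d (0.66, adjusted p = 0.102). Between HT and ST none of the 13 passed in limma, where 0% of all did, and at an unadjusted p under 0.05 it was 1 of the 13 and 4658 of all. No identifier of the 5 lists of related genes was called by the study's thresholds between CM and SC mice within a region. In the tests of the diet difference between regions, some of them passed an adjusted p under 0.05, where the same shares of all identifiers apply. Of the 5 lists, only the metabotropic receptors between ST and FC exceeded that share, with 3 of 8 identifiers higher and 1 lower. Between ST and FC, 4 AMPA auxiliary identifiers were higher and 1 lower, led by Cacng4 (1.13 ± 0.32), Shisa9 (0.90 ± 0.19), Cpt1c (0.50 ± 0.13) and Porcn (-0.54 ± 0.15). Of the scaffold list 2 identifiers were higher, among them Pick1 (0.73 ± 0.24), and 3 were lower, Homer3 (-0.82 ± 0.20), Shank2 (-0.70 ± 0.24) and Dlgap4 (-0.49 ± 0.17). Of the kainate and delta list, 3 identifiers were higher, among them Grik2 (0.82 ± 0.16) and Grid1 (0.63 ± 0.24). Of the metabotropic receptors Grm4 (0.85 ± 0.26) and both Grm5 identifiers (0.65 ± 0.24 and 0.48 ± 0.18) were higher and Grm2 (-0.71 ± 0.23) lower. Between HT and FC, Cacng4 (0.87 ± 0.28) and Grid1 (0.61 ± 0.21) were higher, and Camk2a (-0.84 ± 0.30), Grm2 (-0.73 ± 0.20), Dlgap2 (-0.65 ± 0.16) and Shank2 (-0.65 ± 0.21) were lower. Once a fixed slide term was added, 0 of all identifiers passed in either comparison.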

How the data were processed

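RNA from FC, ST and HT was hybridized to 23 one-colour Agilent arrays of 62976 spots, scanned with Feature Extraction 10.7.3.1 per the file headers. The authors deposited the scanner files with the green intensity of each spot, and a table of log2 values that they had made by normexp background correction, quantile normalization, a filter (log2 value exceeding that of negative controls, at their 95th percentile, by a factor of 1.1 on 4 or more arrays) and averaging by identifier. Rebuilding that table from the deposited intensities gave the same 31395 identifiers within 5e-09. Log2 values were fitted in limma 3.58.1 (R 4.3.3) with 1 mean for each of 6 groups, weighted arrays and a random effect of mouse as block (correlation -0.0398), and p-values were adjusted by Benjamini-Hochberg over all identifiers. The number of arrays limits the precision, and 36432 to 42261 spots per array were well above background. Region comparisons averaged both diets. The same-numbered replicates are regions of 1 mouse per the labels, which is where the pairing comes from. Ratios were tested with an exact sign-flip permutation test. The script was tested on simulated data.

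The members and lists were chosen with earlier results of these data known. All 13 member identifiers are described, and for each list the up to 3 largest called changes in each direction are named, except that some results are not reported here. Related genes by pattern are the 2 highest Pearson correlations. Alternatives covered slide terms, weights, normalization, filters, averaging, thresholds, diets and left-out arrays. One array set, both ST arrays of lowest weight, was left out by a choice made after seeing the data.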

Additional observations from a re-analysis of the deposited data

Results flagged for a closer look

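In 4 of 65 groups of 4 arrays, 1 array lay far from the other 3 by Dixon's criterion, which chance gives in about 1 of 20 groups. Grin1 NM_008169 was at 10.03 in ST of the SC mouse L58, against 8.12 to 8.26 in the other 3. Grin2a was at 10.66 in ST of the SC mouse L54, against 9.70 to 9.86. Grin2b was at 11.76 in FC of the SC mouse L52, against 12.08 to 12.13. Gria2 NM_001083806 was at 8.35 in HT of the CM mouse O52, against 8.65 to 8.69. Over all identifiers the same criterion set a single array apart for 162 to 845 of them among the 20 arrays tested, with 743 for ST of L58, 285 for ST of L54, 845 for FC of L52 and 522 for HT of O52.

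The diet difference of Gria2 NM_001039195 was not the same in ST and FC by the test of the difference itself (-0.57 ± 0.19 on the log2 scale, adjusted p = 0.0301 in limma). With the slide as a fixed term it was -0.19 (adjusted p = 0.99995), and the part of the slide was not tested further.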

How the results depend on the processing

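Member results were sorted by an adjusted p under 0.05 alone, so crossings of a fold threshold do not count here. Over 117 member results, 1700 of 1743 alternatives kept the side of that threshold, of which 126 changed sign in differences that passed under neither setting. Of the rest, 23 stopped passing, 18 began to pass and 2 passed under 1 setting and had the opposite sign. Of 1495 fits with 1 array left out, 1466 kept the side, of which 115 changed sign in differences that passed under neither setting. Of the rest, 16 stopped passing, 13 began to pass and 0 passed under 1 setting with the opposite sign. Those 2 were Grin1 NM_001177656 for ST-FC with the slide as a fixed term (0.39) and the Gria1 diet difference between ST and FC after median centring (0.40), where centring moved the median of all identifiers from 0.09 to 0.31. Median centring also moved that median from 0.07 to 0.26 for HT against FC and from -0.04 to -0.16 for the diet in FC. The count of members called in HT-ST was 5 with the slide fixed, without array weights, after median centring and with 1 value per probe, 1 with an offset of 50, 6 in CM mice alone and 12 at an adjusted p under 0.05 alone, and 3 to 5 with an array left out. For HT-FC it was 8 with 1 value per probe, 4 in SC and 6 in CM mice alone, 10 at the adjusted p alone and 4 to 6 with an array left out. For ST-FC and for the diet in FC it was 6 and 2 at the adjusted p alone. For the diet difference between ST and FC it was 0 with the slide fixed or random, without weights and without the filter, 2 with 75th percentile scaling, 3 after median centring and 0 to 2 with an array left out. For that between HT and FC it was 2 after median centring, 1 with the compared groups alone and 0 to 1 with an array left out. With slide effects subtracted, the Gria1 to Gria2 ratio differed by 0.34 (ST-FC), 0.65 (HT-FC) and 0.27 (HT-ST), and Grin2a to Grin2b by -0.42 (HT-FC). No p-value is read from these, since the test leaves out the error of the slide estimates. The Gria1 to Gria2 ratio passed with mean spot signals (HT-FC 0.64, HT-ST 0.19) and averaged over identifiers (ST-FC 0.23, HT-FC 0.66, HT-ST 0.44). The cause was not tested. Without the mouse as a replicate block, HT-FC called 5 members as with it, and no count of members changed. Over all identifiers, 922 diet calls were made in FC, 0 with the slide fixed, 171 with it random, 242 without weights, 394 with the offset, 1549 with 1 value per probe and 2985 with 75th percentile scaling, and median centring moved the share of higher calls from 90.5% to 78.7%. In ST the count of 189 and in HT that of 56 were 0 with the slide fixed or random, without weights and with the compared groups alone. The diet difference was called for 9454 identifiers between ST and FC and for 6267 between HT and FC, 0 of either with the slide fixed, 2150 and 662 with it random, and 14909 and 12357 after median centring, and between HT and ST for 0, which was 138 to 916 under 9 other settings. With the offset of 50, which left 25618 identifiers to test, 6.25% of them were called for HT-FC, against 7.67% of 31395, and the counts were 1323 against 2003 for HT-ST and 755 against 1200 for ST-FC. With 75th percentile scaling, HT-ST had 3140 calls, 57.3% of them higher, against 44.6%.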
